A study of Mus musculus with 3 samples.

Results

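Gata4, Gata5, Tbx20, Hand2 and Casz1 are transcription factors that cooperate in the developing heart and are also used outside it. They were 5 of the 296 genes read by MERFISH, an imaging assay that decodes single RNA molecules in place, in wild type mouse embryos; the design listed 300 genes, of which 4 were sequential probes not analysed here. The members were chosen by name. One sagittal section came from a whole embryo at E15.5 (E for embryonic day), and at E9.5 there were 2 sagittal sections from 2 embryos. No allele, agent or treatment is given for any section, and E15.5 rests on 1 embryo. Cells with at least 10 panel counts were kept, which left 195915 of 219525 segmented cells at E15.5. At E9.5 this left 830 of 1077 cells (section 1) and 6334 of 6835 (section 2). Cells of 1 section share that section, so the intervals below are exact 95% intervals (Clopper-Pearson for shares, Poisson-based for levels and ratios) that cover counting error only.

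GATA4 and GATA5 are zinc finger proteins that bind the letters GATA in DNA. TBX20 is a T-box protein, HAND2 a basic helix-loop-helix protein that binds E-boxes with a partner, and CASZ1 a zinc finger protein. In the mouse heart GATA4 binds and works with several of the others, TBX20 is needed for chamber growth and valve formation, HAND2 for growth of the right ventricle and CASZ1 for growth of the heart muscle. Outside the heart Gata4 is known from stomach and gut epithelium and from liver stroma, Gata5 from lung and gut mesenchyme, Tbx20 from hindbrain motor neurons, Hand2 from sympathetic and enteric neurons, limb buds and pharyngeal arches, and Casz1 from neurons and muscle.

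The RefSeq promoter table (GRCm38.p6) held 4 of the 5 genes, and Gata4 is named only. The 250 bases before the annotated start were searched on both strands for 4 GATA words (AGATAA as the first word, then AGATAG as the second word, TGATAA as the next word and TGATAG as the last word), for T-box words (GGTGTGA as the first word and AGGTGTG, which can overlap it, as the other word) and for the E-box CATCTG. The promoters of Hand2 and Tbx20 are shown because these genes were found together in both the largest Tbx20 domain and the Rgs4-rich cell groups described below. Capitals mark GATA letters, of which the Hand2 window (chr8:57320733-57320982, plus strand) had 2 matches, at 215 and 172 bases before the start, and the Tbx20 window (chr9:24774304-24774553, minus strand) had 0.
Hand2: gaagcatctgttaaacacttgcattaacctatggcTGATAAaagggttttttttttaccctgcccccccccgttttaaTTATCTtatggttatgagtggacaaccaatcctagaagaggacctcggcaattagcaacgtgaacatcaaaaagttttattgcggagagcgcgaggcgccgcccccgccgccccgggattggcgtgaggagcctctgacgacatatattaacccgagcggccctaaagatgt
Tbx20: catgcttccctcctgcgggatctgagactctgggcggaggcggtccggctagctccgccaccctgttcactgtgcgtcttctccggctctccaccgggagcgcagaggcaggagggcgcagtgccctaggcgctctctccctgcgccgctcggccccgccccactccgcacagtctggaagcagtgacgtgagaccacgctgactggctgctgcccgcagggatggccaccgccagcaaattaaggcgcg
The Hand2 window also had 1 CATCTG, and 1 of the 2 Casz1 promoters had 1 T-box match, 115 bases before the start. The Gata5 window had 0 matches to any of the motifs. Such letters are common: GATA letters stood in 26.5% of 32841 promoters of the same length, T-box letters in 7.23% and CATCTG in 14.4%. A match is a description of the letters only.

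The sections differed in size and depth. Panel counts in kept cells summed to 21227345 at E15.5, and to 68572 and 1034730 in E9.5 sections 1 and 2, with medians of 84, 61 and 128 counts per cell. The 19 blank codes, which match no RNA, averaged 159.5 CPM (counts of a gene per 1e+06 panel counts) at E15.5, 239.5 CPM in E9.5 section 1 and 149.2 CPM in E9.5 section 2. Some areas showed little Gnas, a gene of most cell types (a local share below 50% of the section's 90th percentile). These low-Gnas areas held 33.5% of kept cells at E15.5, against 60.7% and 65.1% at E9.5. The 3 sections shared 0 cell names.

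Gata4 had 633.5 CPM at E15.5, against 277.1 CPM in E9.5 section 1 and 8355 CPM in E9.5 section 2. The E15.5 value lay between the E9.5 sections, which differed 30.2-fold (19.3 to 50.1, section 2 over section 1). Section 1 held only 19 Gata4 counts, 1.16 times the mean blank code. Gata5 had 391.3 CPM at E15.5, against 1225 and 5543 CPM at E9.5, so both E9.5 sections were above E15.5. Tbx20 had 1065 CPM at E15.5, against 2260 and 4455 CPM at E9.5. Hand2 had 2048 CPM at E15.5, against 4317 and 5368 CPM at E9.5. These 3 genes were lower at E15.5 than in either E9.5 section, and Hand2 differed least between the E9.5 sections, at 1.24-fold (1.11 to 1.40). Casz1 had 1055 CPM at E15.5, against 860.4 and 2067 CPM at E9.5, so its groups overlapped.

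In edgeR's quasi-likelihood test on the section sums, fitted on all genes, 2 of the 5 genes passed an adjusted p of 0.05 and both were lower at E15.5, where 5.41% of the 296 genes tested were called lower, 9.46% higher and 14.9% in either direction. Gata5 changed by -3.12 on the log2 scale (SE 0.998, adjusted p = 0.0264, edgeR) and Gata4 by -2.78 (SE 0.906, adjusted p = 0.0264, edgeR). The fit gave -1.66 for Tbx20 (adjusted p = 0.252), -1.23 for Hand2 (adjusted p = 0.350) and -0.48 for Casz1 (adjusted p = 0.831), none of which passed, while the median of all genes was -0.15. The fit has 1 residual degree of freedom, from the 2 E9.5 sections. Neither gene was called with upper-quartile factors, per cell volume or without low-Gnas areas of E9.5 (2, 0 and 3 of the 5 genes then had an unadjusted p below 0.05). Their log2 changes there were -2.32 to -3.28 for Gata4 and -2.72 to -3.37 for Gata5. Over the whole panel, too, fewer genes were called lower in each of these settings than in the main fit. DESeq2 called Gata5 (adjusted p = 0.00213), Hand2 (0.0295) and Tbx20 (0.0291) but not Gata4 (0.496). More genes of the whole panel were called lower by DESeq2 than by edgeR. The Gata4 call by edgeR rests on E9.5 section 2: without that section its log2 change was 1.23, and that of Casz1 0.33. A section's sum depends on the organs that were cut, so a change in level per cell and a change in the tissue sampled cannot be told apart here.

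Positive cells followed the same order as the levels. At least 1 Gata4 count was found in 3.97% of kept cells at E15.5, against 2.17% and 17.7% at E9.5. For Gata5 the shares were 2.83% at E15.5, and 8.55% and 22.6% at E9.5. Tbx20 was found in 4.91% of cells at E15.5, against 8.07% and 17.6% at E9.5, and Hand2 in 7.001%, against 18.2% and 23.5%. Casz1 was the most widely spread at E15.5, with 7.82% of cells, against 6.63% and 15.7% at E9.5. Its positive cells held few molecules: 2.32% of them had 5 or more counts at E15.5, against 17.7% of Hand2-positive cells in the same section. All 5 genes were detected together in 25 of 195915 cells at E15.5 (0.0128%), against 331 of 6334 (5.23%) in E9.5 section 2. In E9.5 section 1 no cell had all 5 (0 of 830), where the interval reaches 0.444%. Median depth was higher in E9.5 section 2 than at E15.5, and its part in that difference was not tested.

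**Figure D1:**
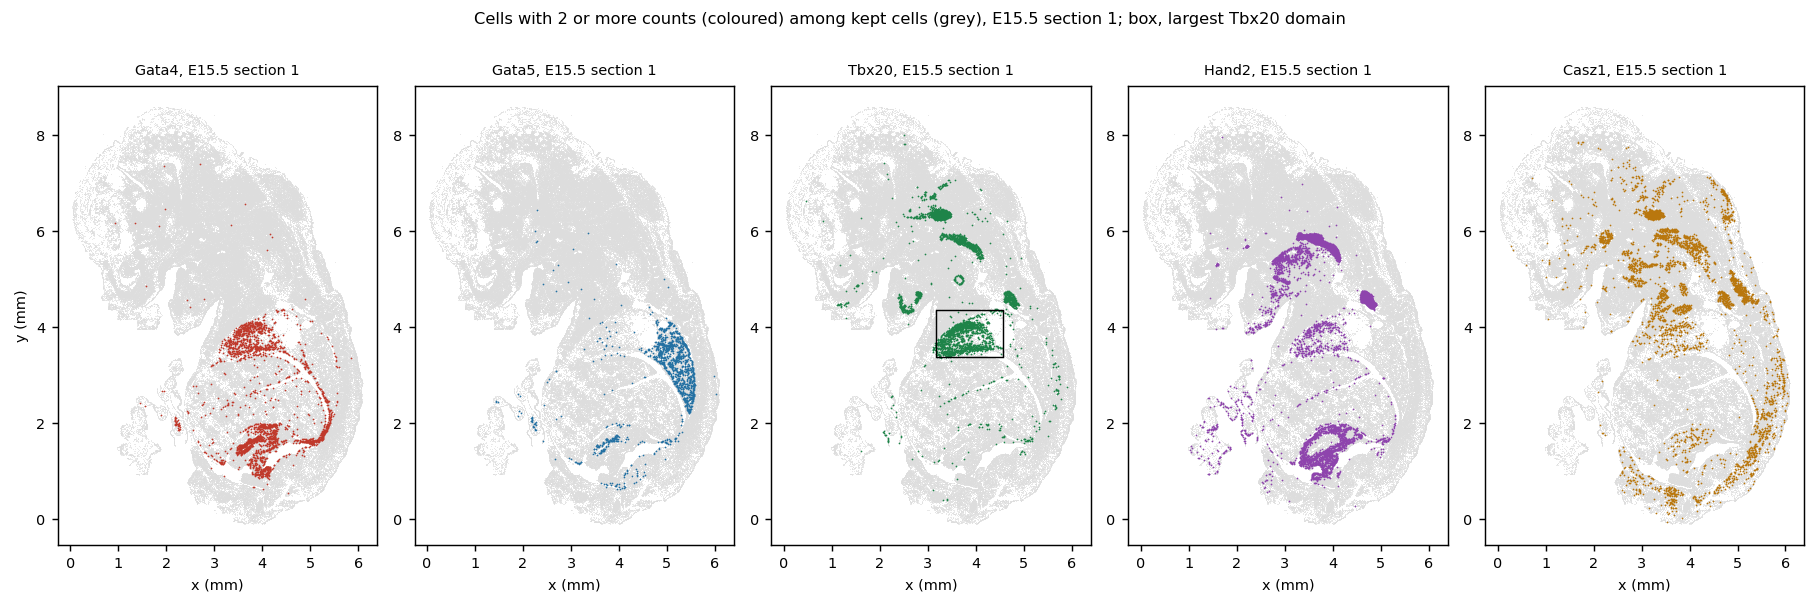
Positions of cells with 2 or more counts of each gene (coloured) among all kept cells (grey) in the E15.5 section, x and y in mm, with positions read as micrometres because the file header gives no unit. The box marks the largest Tbx20 domain (3791 cells). The domain held 27.92% of Tbx20, 22.55% of Gata4, 5.08% of Casz1, 4.04% of Hand2 and 3.02% of Gata5 counts. Most counts of each gene thus lay outside it.

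Domains were defined for each gene as linked cells whose 50 nearest cells held at least 5 times the section's share of that gene. These 50 cells also had to hold at least 10 counts of it, and groups under 20 cells were left out. At E15.5 such domains held 70.3% of Gata4 counts in 4.81% of cells, 64.5% of Gata5 counts in 3.64%, 73.5% of Tbx20 counts in 3.96% and 68.2% of Hand2 counts in 3.06%. Casz1 was more diffuse, with 17.97% of its counts in domains that held 1.91% of cells. In E9.5 section 1 only Hand2 formed a domain, of 56 cells. Gata4 had 19 counts in that whole section, so the minimum of 10 counts left it little room to form one.

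The largest Tbx20 domain at E15.5 held 3791 cells (1.94% of the section) and spread over 1127 by 785 µm around x 3779 and y 3787 µm. The panel contains 0 of 18 heart muscle markers and 0 of 6 epicardial markers looked for, so the region cannot be named from its defining markers and is called here by its Tbx20. Of the endocardial markers, 3 were measured and 2 were at least 2-fold higher inside, Npr3, a natriuretic peptide clearance receptor, at 5.24-fold (4.88 to 5.62) and the adhesion receptor Adgrg6 at 2.04-fold (1.92 to 2.18). In E9.5 section 2, 0 of the 3 were at least 2-fold higher in its largest Tbx20 domain, with Npr3 at 1.49-fold (1.11 to 1.97) and Adgrg6 at 0.473 times (0.128 to 1.22). Markers of other organs differed by list at E15.5: 3 of 3 neuron markers were at 0.00731 to 0.0767 times the rest of the section, the 3 gut and lung mesenchyme markers were at 0.176 to 0.619 times, and the 6 liver sinusoid markers summed to 1796 CPM inside and 3747 CPM in the rest, with Clec4g at 1.61-fold. The 4 visceral smooth muscle markers summed to 7698 CPM inside and 5785 CPM in the rest, with Acta2 at 3.14-fold and the lowest of them at 0.0921 times. The epithelial marker Spint2 was at 1.04-fold, and the 4 macrophage markers at 0.856- to 1.18-fold. Median counts per cell were 59 inside and 84 outside.

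Tbx20 set this domain, so its own 23410 CPM inside and 777.5 CPM in the rest are a description. Gata4 had 11250 CPM inside and 497 CPM in the rest of the section, a ratio of 22.6 (21.7 to 23.6), and 46.3% of the cells inside had at least 1 Gata4 count, against 3.14% outside. Gata4 thereby ranked second only to Tbx20 among all panel genes by this ratio. Casz1 had 4218 CPM inside and 1014 CPM in the rest (4.16-fold, 3.92 to 4.42), and Hand2 had 6514 CPM inside and 1991 CPM in the rest (3.27-fold, 3.12 to 3.43). Gata5 was the weakest, with 931.2 CPM inside and 384.3 CPM in the rest (2.42-fold, 2.13 to 2.75). The domain took 27.9% of all Tbx20 counts and 22.6% of Gata4 counts, but 5.08% of Casz1, 4.04% of Hand2 and 3.02% of Gata5 counts. Most molecules of each of the 5 genes thus lay elsewhere. The largest Gata4 domain at E15.5, found without Tbx20, covered almost the same cells: 3643 were shared, 89.8% of the Gata4 domain and 96.1% of the Tbx20 domain.

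In E9.5 section 2 the largest Tbx20 domain held 129 cells (2.04%). Casz1 had 8117 CPM inside and 1918 CPM in the rest (4.23-fold, 3.64 to 4.89), Gata5 20090 and 5184 CPM (3.88-fold, 3.53 to 4.25), Hand2 17120 and 5078 CPM (3.37-fold, 3.05 to 3.72) and Gata4 24230 and 7964 CPM (3.04-fold, 2.80 to 3.31). All 4 were again higher inside, and Gata4, which had the largest ratio at E15.5, had the smallest here. The largest Gata4 domain of this section (102 cells) shared 0 cells with the Tbx20 domain, and over all domains of the 2 genes 31 cells were shared, 14.4% of the Gata4 and 16.4% of the Tbx20 domain cells. On the map the domain is 1 end of a loop of cells with these genes, so the rest of this section contains the remainder of the loop. With a 3-fold threshold the domain grew to 537 cells and 62.1% of Tbx20 counts. Low-Gnas areas held 72.1% of the cells inside and 65.0% of those outside, whose part was not tested.

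**Figure D2:**
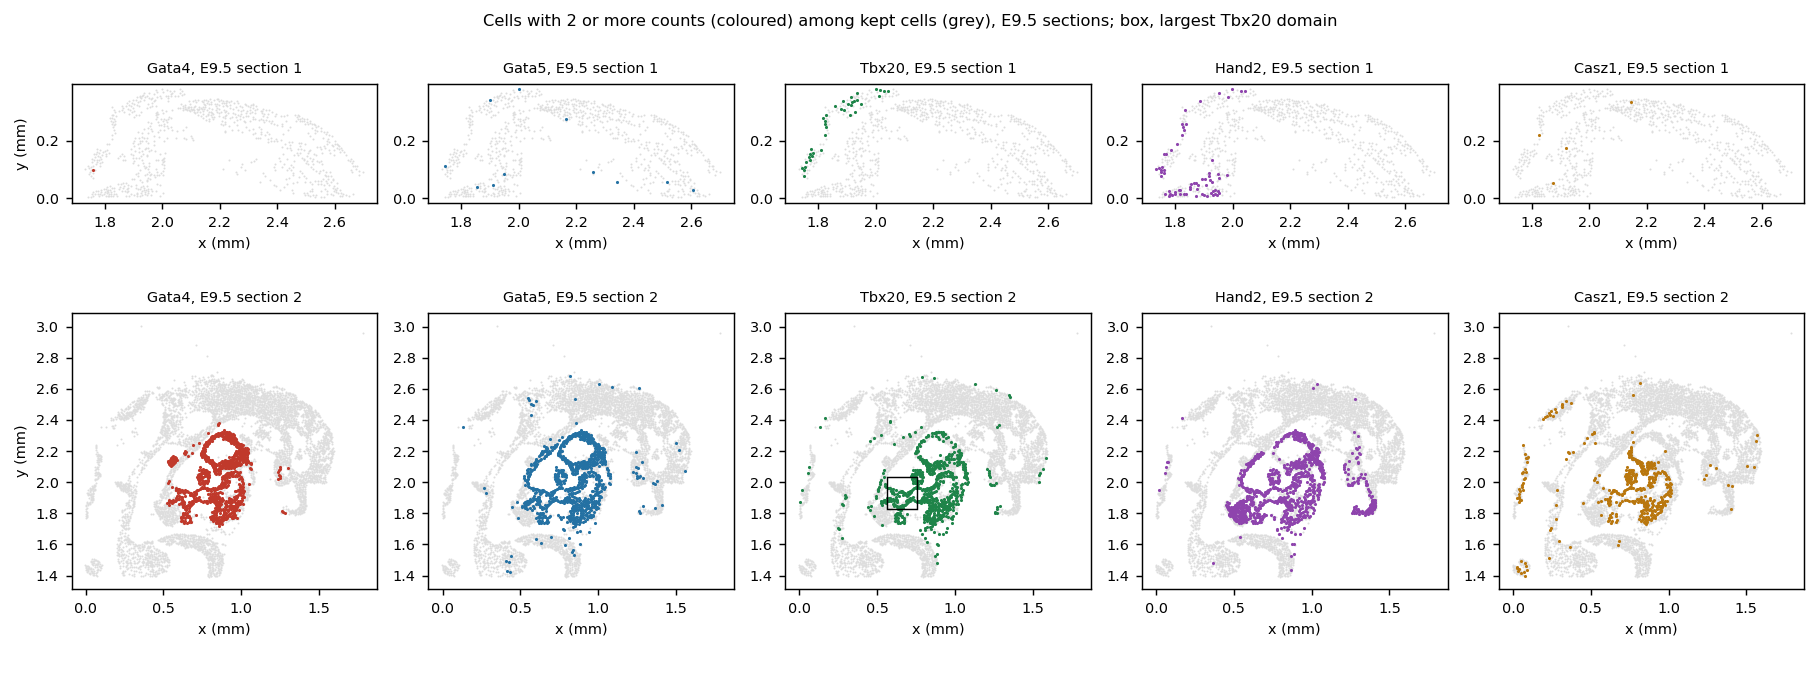
Positions of cells with 2 or more counts of each gene (coloured) among kept cells (grey) in E9.5 section 1 (upper row) and E9.5 section 2 (lower row), x and y in mm. The box marks the largest Tbx20 domain of section 2 (129 cells), 1 end of a loop that carries all 5 genes, and section 1 shows 1 strip with Tbx20 and Hand2 but few Gata4 cells.

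The contrast of domain over rest was tested with edgeR on 4 sums (inside and outside in the E15.5 section and in E9.5 section 2) with the section as a block. All 4 genes that had not set the domain passed and were higher inside, where 2.37% of the 295 genes tested (7 genes) were called higher, 4.75% lower and 7.12% in either direction. The log2 changes (edgeR) were 3.41 for Gata4 (SE 0.721, adjusted p = 7.35e-04), 2.42 for Casz1 (SE 0.667, adjusted p = 0.0164), 2.08 for Hand2 (SE 0.647, adjusted p = 0.0322) and 1.97 for Gata5 (SE 0.654, adjusted p = 0.0460), against a median of -0.11 over all genes. The fit has 1 residual degree of freedom, and edgeR called 0 of 4 genes when cells under 10 counts were kept, when low-Gnas areas of E9.5 were left out or when Gata4 set the domain (4, 4 and 2 with an unadjusted p below 0.05). In each of these settings no gene of the whole panel was called in either direction. With cells under 10 counts kept the log2 changes were 1.94 to 3.43, without low-Gnas areas 1.58 (Gata5) to 3.12 (Gata4), and with Gata4 setting the domain Casz1 was at 0.14. Gata5 was called in only 2 of 9 other settings that kept Tbx20 as the gene that set the domain, 1 of them DESeq2, which called all 4 genes. A difference in this contrast between the stages could not be fitted, because no degree of freedom is left.

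**Figure D3:**
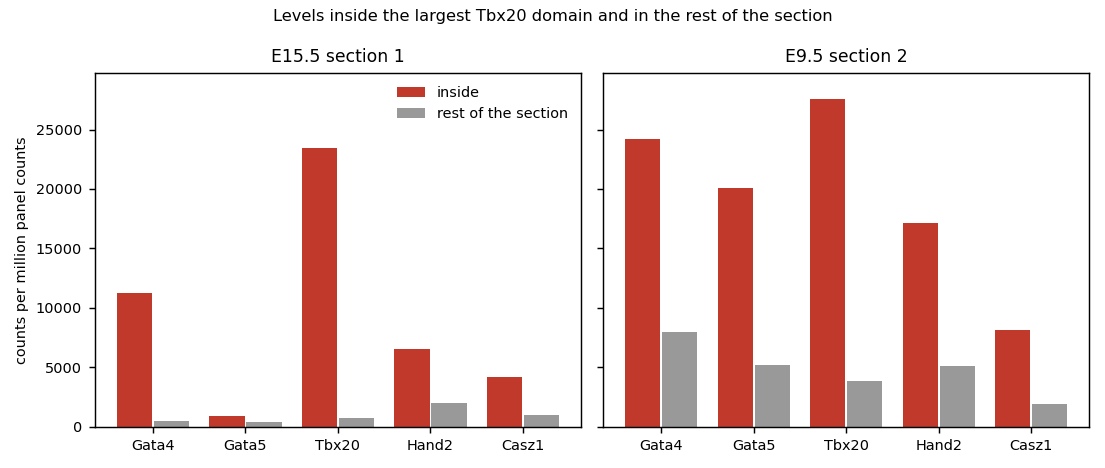
Levels (CPM) of the 5 genes inside the largest Tbx20 domain (red) and in the rest of the section (grey) at E15.5 (left) and in E9.5 section 2 (right), 1 section each. All 5 are higher inside at both stages, Tbx20 by the rule that set the domain, and Gata5 is low at E15.5 (931.2 CPM inside) and high at E9.5 (20090 CPM inside).

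Other panel genes of the domain are named by the size of their ratio. At E15.5 these were the connexin Gja5 at 13.7-fold (13.2 to 14.1), the receptor Gpr182 at 6.09-fold, the fatty acid genes Fabp4, Cd36 and Lpl at 5.83-, 5.37- and 4.26-fold, Npr3, Tm4sf1, Tmem108, the endothelial adhesion gene Pecam1 at 3.57-fold and Prox1 at 3.48-fold. In E9.5 section 2 they were Rgs4 at 6.14-fold, the netrin receptor Unc5b at 4.604-fold, Itm2a, Anxa6, Cavin3, Gja5 at 3.73-fold (2.78 to 4.90), Ltbp4, Cdkn1c, the smooth muscle actin gene Acta2 at 2.89-fold and Notch4. Gja5, the connexin of atrial and conducting heart muscle and of arteries, was the only gene in both lists of 10. In E9.5 section 2 it had 56 counts inside, of which 52 lay in the 93 cells under 50 µm from the edge (3001 CPM). The 36 cells further in had 4 Gja5 counts, at 529.1 CPM (144.2 to 1355), against 604.1 CPM in the rest of the section. Among the 5 endothelial markers measured, 2 were at least 2-fold higher inside at E15.5, with Pecam1 the highest and the lowest at 0.336 times. They summed to 13640 CPM inside and 7242 CPM in the rest. In E9.5 section 2 only 1 of the 5 was at least 2-fold higher inside, and the lowest was at 0.102 times. Their sum there was 4822 CPM inside and 6242 CPM in the rest. Of 40 cardiac network genes looked for, 8 were in the panel. Besides Npr3 and Adgrg6, Edn1, which encodes endothelin, was 2.19-fold higher inside at E15.5 (1.81 to 2.64), while Foxf1, a visceral mesoderm factor, was at 0.176 times the rest at E15.5 and at 0.0191 times in E9.5 section 2. Heyl, Meis2 and Klf4 were below the rest of the section at E15.5, at 0.593, 0.347 and 0.513 times, and the endothelin receptor Ednra was at 1.57 times.

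Within the E15.5 domain the genes did not share 1 profile from rim to core. Cells were grouped by distance to the nearest cell outside: under 50 µm (429 cells), 50 to 100 µm (783), 100 to 200 µm (1539) and over 200 µm (1040). Gata4 had 6710, 10360, 12020 and 12960 CPM in this order and was lowest at the rim, with overlapping intervals over the inner 2 groups. Casz1 had 2412, 3968, 4503 and 4840 CPM, also lowest at the rim, and its 3 inner intervals overlapped. Tbx20 had 14380, 29720, 24960 and 19520 CPM and peaked 50 to 100 µm from the edge. Hand2 had 3587, 7364, 7002 and 6349 CPM, lowest at the rim, with overlapping intervals over the 3 inner groups. Gja5 was 2814 CPM at the rim and 22460 CPM in the core, and Npr3 618 and 4669 CPM, both steeper than any of the 5 genes. Gata5 had 1299 CPM at the rim and 1214 CPM in the core, with overlapping intervals, and 727.8 and 772.3 CPM between. Median counts per cell were 64 in the outer 3 groups and 45.5 in the core, and Tbx20 itself set the boundary.

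Clusters were built from the other panel genes, so that none of the 5 defined a cluster. At E15.5, 2891 of the 3791 domain cells fell into an endothelial-like cluster of 17173 cells. Its cells inside the domain had 25060 CPM Tbx20 and 11860 CPM Gata4, against 297.4 and 353.6 CPM in its cells outside. They had less of the endothelial genes themselves: Cdh5, the vascular cadherin gene, was at 5908 CPM inside and 13090 CPM outside, Cldn5, a tight junction gene, at 539.5 and 4980 CPM, and Pecam1 at 4658 and 7424 CPM. Gja5 was at 16420 CPM inside and 1983 CPM outside. With finer clustering (resolution 2) a separate cluster of 5624 cells led by Gja5, Gpr182 and Npr3 held 2517 domain cells, with 14240 CPM Tbx20 and 6954 CPM Gata4, so the endothelial-like label of the domain cells depends on the resolution.

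Counts at E15.5 were then divided among the Tbx20 domain and, outside it, groups of clusters. The groups were named from markers where at least 3 were raised and otherwise by a leading gene, and were put together after their values were seen. The panel contains 0 of 12 autonomic neuron markers and 0 of 7 hepatocyte markers looked for, so ganglion and liver sources can be given by leading genes only.

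**Figure D4:**
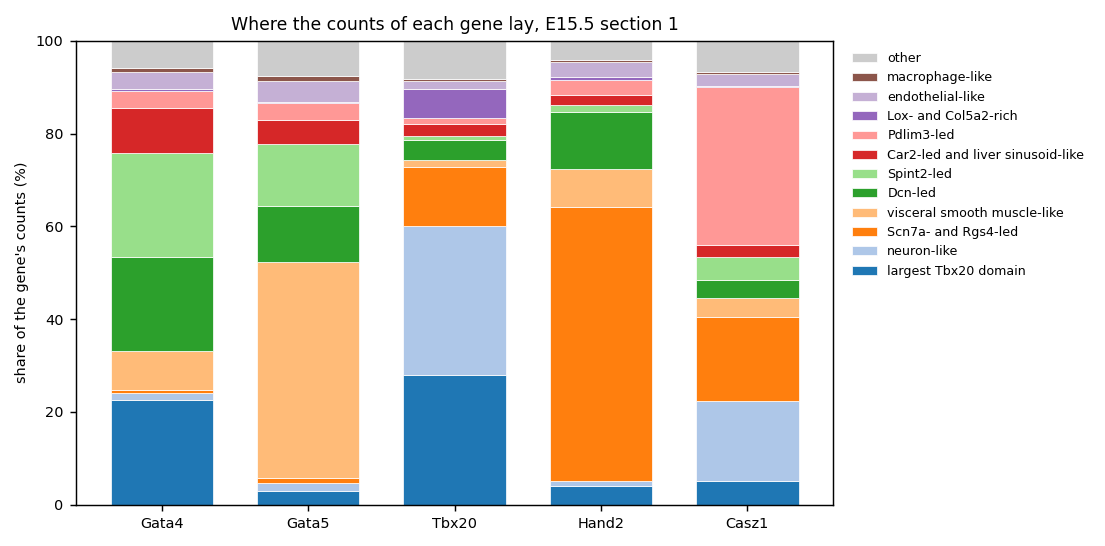
Share of each gene's counts (percent, stacked to 100) in the largest Tbx20 domain and in groups of clusters outside it, E15.5 section. No gene had most of its counts in the domain, and the largest source differed among the genes: Spint2-led clusters or the domain for Gata4, visceral smooth muscle-like for Gata5, neuron-like for Tbx20, Scn7a- and Rgs4-led for Hand2 and Pdlim3-led for Casz1.

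Gata4 had 4 sources of note. The domain held 22.6% of its counts (21.9 to 23.3), and clusters led by the epithelial protease inhibitor gene Spint2 and by Wnt4 held 22.4% (21.7 to 23.2) at 1973 CPM, a difference within the counting intervals. A cluster led by the matrix gene Dcn held 20.2% at 1006 CPM. Liver-type groups (Car2, a gene of red cells, and the liver sinusoid-like cluster) held 9.62% at 1064 CPM, where the blank codes averaged 237.3 CPM. In space the second Gata4 domain (2337 cells around x 3951 and y 1688 µm, 26.8% of Gata4 counts) was led by Myh11, the smooth muscle myosin gene, Acta2, Foxf1 and Spint2, which are genes known from the gut wall and lining, and carried 5739 CPM Hand2 but only 401.2 CPM Tbx20. Another Gata4 domain, of 992 cells around x 5201 and y 1809 µm, was led by the macrophage genes C1qb and F13a1. Of its cells, 44.35% fell into the Dcn-led cluster and 21.2% into the Pdlim3-led cluster. The macrophage-like cluster held only 0.892% of Gata4 counts, at 449 CPM. In neuron-like clusters Gata4 was at 61.6 CPM, below the blank codes at 118.7 CPM.

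Gata5 counts lay mostly outside the Tbx20 domain. A visceral smooth muscle-like cluster held 46.5% of its counts (45.5 to 47.6) at 2548 CPM, Spint2-led clusters 13.2% and the Dcn-led cluster 12.0%, against 3.02% in the domain. The largest Gata5 domain held 5549 cells (centred at x 5182 and y 3254 µm) with 55.1% of Gata5 counts, and it was led by Foxf1, Ednra, Slc38a5 and Gucy1a1, a guanylyl cyclase gene. Hand2 there was at 184.7 CPM. Conversely, the second Hand2 domain, led by Myh11, Kcnj8 and Foxf1, had 16830 CPM Hand2 and 174.6 CPM Gata5. Both domains drew most on the same visceral smooth muscle-like cluster, so its Gata5 and Hand2 came from separate places. The largest Gata5 and Tbx20 domains shared 42 cells, 0.757% and 1.11% of them. A smaller Gata5 domain of 742 cells, around x 3731 and y 1574 µm, was led by Spint2 at 16.4-fold and had 19470 CPM Gata4.

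Tbx20 had its largest share in neuron-like clusters, 32.1% (31.5 to 32.7), against 27.9% in the domain. One neuron-like cluster of 932 cells, with Far2 and S100a10 among its leading genes, held 25.9% of all Tbx20 counts at 27060 CPM, above the 23410 CPM of the largest Tbx20 domain. In space this was a compact domain of 1065 cells around x 3252 and y 6346 µm, with 31510 CPM Tbx20 and 8551 CPM Casz1 but 66.8 CPM Gata4, 28.6 CPM Gata5 and 104.9 CPM Hand2. Tbx20 and Casz1 thus occurred there without the other 3 genes. The panel holds 0 of 5 motor neuron markers looked for. A further 12.8% of Tbx20 counts lay in the Scn7a- and Rgs4-led cluster and 6.18% in a cluster of 1269 cells with Lox and Col5a2, genes of the collagen matrix, among its leading genes, at 10450 CPM.

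Hand2 was concentrated in the Scn7a- and Rgs4-led cluster, with 58.9% of its counts (58.5 to 59.4) in 2.34% of cells, at 30020 CPM, against 4.04% in the Tbx20 domain. Scn7a marks peripheral glia and Stmn2, also among its leading genes, neurons. With finer clustering it split into 2127 cells led by Rgs4, Ccnd1 and Epas1, with Stmn2 at 5.06-fold, and 2485 cells led by Scn7a. Hand2 was at 56890 CPM in the Rgs4-led cells and 8554 CPM in the Scn7a-led cells, and Tbx20 at 7158 and 390 CPM. Casz1 was at 4010 and 5289 CPM, so Hand2 and Tbx20 followed the Rgs4-led cells and Casz1 did not. Tbx20 had 2 Rgs4-led domains of its own, 980 cells with 53160 CPM Hand2 and 674 cells with 55470 CPM Hand2, with Gata4 at 74.5 and 85.1 CPM. Smaller Rgs4-led Hand2 domains, of 121 and 95 cells, had 21180 and 21350 CPM Hand2 but 407.4 and 116 CPM Tbx20. Hand2 in the Dcn-led cluster made up 12.2% of its counts and in the visceral smooth muscle-like cluster 8.30%.

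Casz1 had its largest share, 34.0% (33.4 to 34.7), in a cluster led by Pdlim3, Gja5, Cdkn1a and Acta2, at 2786 CPM, where 30.5% of cells had a Casz1 count. Pdlim3 encodes a muscle LIM protein, and the panel holds 0 of 6 skeletal muscle markers looked for. The other 4 genes were at 110.1 to 510.1 CPM in this cluster, where the blank codes averaged 160 CPM. The Scn7a- and Rgs4-led cluster held 18.04% of Casz1 counts and neuron-like clusters 17.4%. A Casz1 domain of 734 cells led by Scn7a at 50.4-fold had 6589 CPM Casz1 and 171.4 CPM Hand2, and one of 908 cells, with Reln and Hoxa5, genes of the spinal cord among other places, among its leading genes, had 9699 CPM Casz1.

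At E9.5 the sections differed in cluster make-up and in the levels of the 5 genes. They also differed in depth, and the part of each was not tested. In section 2, a cluster of 385 cells led by Acta2, Pdlim3 and Prox1 held 34.5% of Gata4, 25.8% of Gata5, 48.1% of Tbx20, 18.8% of Hand2 and 44.3% of Casz1 counts; 0 of its cells came from section 1. A cluster led by Rgs5, Pcdh17 and Depp1 (237 cells in section 2, 1 in section 1) had higher levels of 4 of the 5, with 33640 CPM Gata4, 30670 CPM Gata5, 17740 CPM Hand2 and 9023 CPM Casz1, and a Tbx20 level close to that of the Acta2-led cluster, 19140 CPM against 18210 CPM. Low-Gnas areas held 90.7% of the cells of the Rgs5-led cluster and 8.57% of the Acta2-led one, and the part of this in the difference was not tested.

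Further clusters of section 2 had some of the genes at much lower levels than others. A cluster led by Ackr3 and Fbln2 (269 cells) had 21600 CPM Gata4, 12660 CPM Gata5 and 12240 CPM Hand2 with 252.3 CPM Casz1. One led by the visceral factors Nkx2-3 and Foxf1 (249 cells) had 23550 CPM Gata4, 13000 CPM Gata5 and 9119 CPM Hand2 with 2726 CPM Tbx20 and 1011 CPM Casz1. A cluster of 405 cells led by Kcne3, Scn7a and the limb and face mesenchyme factor Prrx1 had 21550 CPM Hand2 and 210.4 CPM Tbx20. These 3 clusters had Tbx20 well below the Acta2-led cluster, and low-Gnas areas held 38.7%, 91.6% and 99.3% of their cells in this order. In section 1, a cluster led by the Wnt antagonist Dkk2, Epas1 and Col1a2 (126 cells) held 98.1% of Tbx20 counts at 6990 CPM, with 5243 CPM Hand2 and 321.9 CPM Gata4. The same cluster in section 2 had 7543 CPM Tbx20, 8827 CPM Hand2 and 1336 CPM Gata4. The Tbx20 of section 1 thus came without the Acta2-led cells that held 48.1% of it in section 2.

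Co-detection was measured as cells positive for both genes over the number that independence within 10 groups of equal depth gives. At E15.5 Gata4 and Tbx20 were found together in 1814 cells, 4.01 times the expected number (3.83 to 4.198). Gata4 and Gata5 followed at 3.66 (3.43 to 3.89), Tbx20 and Hand2 at 3.30 (3.18 to 3.42), Gata4 and Hand2 at 2.99 and Tbx20 and Casz1 at 2.198. Gata4 with Casz1 was at 1.47, Hand2 with Casz1 at 1.46 and Gata5 with Tbx20 at 1.37. Gata5 with Hand2, at 1.03 (0.947 to 1.13), and Gata5 with Casz1, at 0.891 (0.818 to 0.969), were not above the expected number. Over all 43660 gene pairs the median was 1.03 and 0.847% of pairs reached 2. In E9.5 section 2 all 10 pairs lay between 1.37 and 2.26, with Gata4 and Tbx20 again highest at 2.26 (2.10 to 2.43), and pairs with Gata5 no longer fell to the expected number. The order at E15.5 changed when cells with at least 50 counts were thinned to 50 counts each. Tbx20 and Hand2 were then at 5.05 (4.75 to 5.36) and Gata4 and Tbx20 at 4.91 (4.56 to 5.28). Gata4 and Gata5 fell to 2.16 (1.90 to 2.44) and Gata5 and Tbx20 to 1.02 (0.841 to 1.23). Thinned in the same way, Gata4 and Tbx20 stayed highest in E9.5 section 2, at 2.12.

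**Figure D5:**
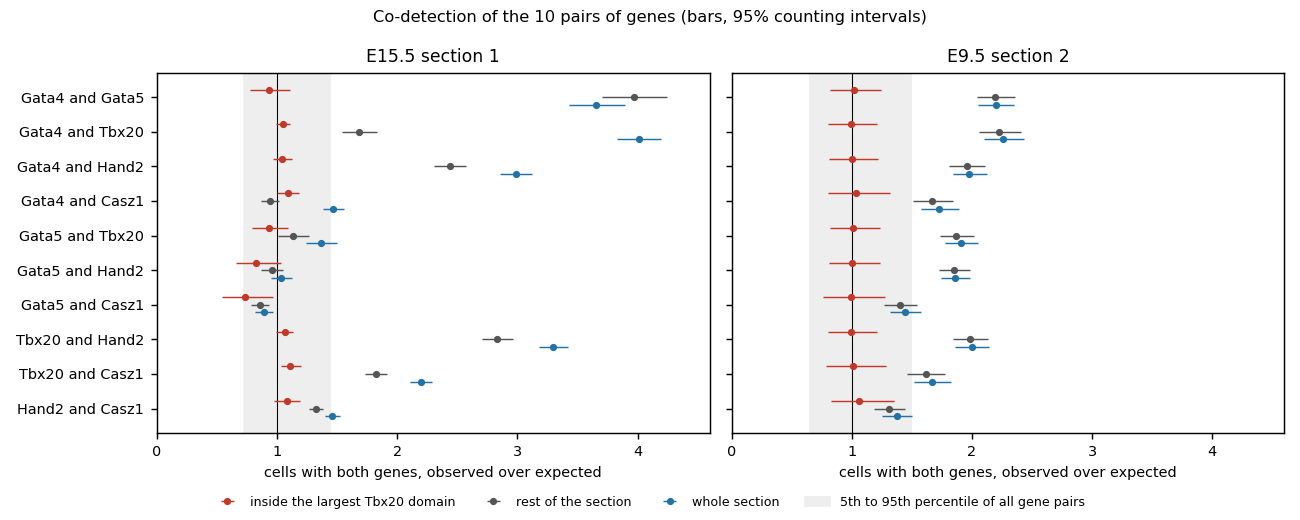
Observed over expected cells with both genes for the 10 pairs, with 95% counting intervals, inside the largest Tbx20 domain (red), in the rest of the section (grey) and in the whole section (blue), for E15.5 (left) and E9.5 section 2 (right). The vertical line marks 1 and the band the 5th to 95th percentile of all gene pairs, and the red points sit near 1 for nearly all pairs; at E9.5 most cells inside were positive for each gene, which leaves the ratio little room above 1.

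Inside the E15.5 Tbx20 domain most pairs were close to the expected number. Gata4 and Tbx20 were at 1.05 (0.995 to 1.11), and the 10 pairs lay between 0.733 and 1.11. In the rest of the section Gata4 and Gata5 stayed at 3.97 (3.71 to 4.24) and Tbx20 and Hand2 at 2.83 (2.71 to 2.96), while Gata4 and Tbx20 were at 1.68 (1.54 to 1.83). The places differed by pair. Of the 1814 cells with Gata4 and Tbx20, 71.3% lay in the domain. Of the 2841 with Tbx20 and Hand2, 45.5% lay in the Scn7a- and Rgs4-led cluster and 32.0% in the domain. Of the 973 with Gata4 and Gata5, 30.8% lay in Spint2-led clusters, 24.5% in the Dcn-led cluster and 12.8% in the domain. Cells with Tbx20 and Casz1 (2254) were spread over the domain with 30.7%, the Scn7a- and Rgs4-led cluster with 29.1% and neuron-like clusters with 25.7%. Of the 400 cells with 4 or 5 of the genes, 72.8% lay in the domain, which holds 1.94% of all cells. Tbx20 set the domain, so part of this share, and of the shares for pairs with Tbx20, follows from that rule. Inside the E9.5 domain the 10 pairs were at 0.991 to 1.06, but 56.6% to 86.1% of its 129 cells were positive for each gene, so the ratio had little room to exceed 1 there.

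Over 2758 squares of 100 µm in the E15.5 section, which share 1 section and its depth, Gata4 was most like Tbx20 (r = 0.511) and Gata5 (r = 0.385), then Arhgap18 (0.372), Ube2c (0.354), Gpr182 (0.351), Gja5 (0.343) and Gnai2 (0.333). Gata5 was most like Foxf1 (0.468), Gucy1a1 (0.448) and Ednra (0.414), the leading genes of its largest domain, followed by Arhgap18 (0.394), Gata4, Tagln2 (0.348) and Pecam1 (0.328). Tbx20 followed Gata4, Hand2 (0.417), Gja5 (0.393), Casz1 (0.352), Fabp4 (0.269), Epas1 (0.264), Cd36 (0.251) and Lpl (0.248). Hand2 followed Tbx20, the cyclin gene Ccnd1 (0.413), Gata4 (0.332), Myh11 (0.262), Npr3 (0.246), Kcnj8 (0.231) and Rgs4 (0.223). Casz1 was most like Gja5 (0.431), Pdlim3 (0.415), Acta2 (0.389) and the cell cycle inhibitor gene Cdkn1a (0.378), then Tbx20, its nearest among the other 4 genes. The order changed with the size of the squares. For Casz1 in squares of 200 µm Tbx20 (0.403) came before Acta2 (0.367) and Cdkn1a (0.366). In squares of 50 µm it came after Cd36 (0.263 against 0.283). At 50 µm Hand2 was most like Ccnd1 (0.455, with Tbx20 at 0.365). Tbx20 was then most like Hand2, with Gata4 at 0.349.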

How the data were processed

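Counts of decoded molecules per segmented cell, with cell positions and volumes, were deposited; per the labels' protocols hybridization, imaging, segmentation and decoding were done on the Vizgen MERSCOPE platform. The submitters' processing notes also name Scanpy and Seurat, with no role, and no label or header states the segmentation settings. The other deposited values are positions and volumes, whose unit no header gives; positions were read as micrometres. Cells under 10 panel counts were left out. Totals of a gene over panel totals, times 1e+06, give CPM.

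The 5 genes, the marker and network lists and the tests were chosen with earlier results of these data known. Named genes are the 5, the 5 panel genes most like each over 100 µm squares with at least 1000 counts, the 10 with the largest ratio inside over outside the largest Tbx20 domain with at least 50 counts inside, and network list members. Sums per section, or inside and outside the domain, were tested with edgeR 4.0.16 (glmQLFTest, Benjamini-Hochberg, summed count of at least 30); nothing in the labels says more of the sections than that they came from different embryos. Each SE is the size of the log2 change over the square root of edgeR's F statistic. It restates the test and is no separate measure of spread. On simulated counts 60 of 60 genes changed 8-fold were recovered in the stage fit (296 genes, 1 false) and in the domain fit (295 genes, 5 false). Apart from these changes, all sections were simulated from the same gene shares, with no difference in tissue between them. The simulation therefore cannot show how the fits handle sections that differ as the E9.5 sections do. Clusters used 30 principal components, 15 neighbours and Leiden resolution 1 (igraph), without the 5 genes; a cluster was named where at least 3 markers were at least 2-fold higher. Doublets were not called; cells with a neighbour centre within 8 µm were left out in an alternative. DESeq2 1.42.0 was an alternative. Some leading genes of clusters and domains are not reported here.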

Additional observations from a re-analysis of the deposited data

How the results depend on the processing

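The labels give no shared replicate numbers that pair E15.5 with E9.5. No paired analysis was possible because E15.5 has 1 section and number 1 only names a sample. For the change with stage, the 2 genes called lower by edgeR became 0 with upper-quartile factors, per cell volume and without low-Gnas areas of E9.5 (2, 0 and 3 had an unadjusted p below 0.05), and 3 with DESeq2. Over all genes 28 were called higher and 16 lower; the counts were 46 and 46 with DESeq2, 10 and 1 per cell volume and 10 and 4 without low-Gnas areas. Upper-quartile factors gave 5 lower, and subtracting the blank level gave 15 higher. Leaving out 1 E9.5 section gave log2 changes of -3.53 to 1.23 for Gata4 and -0.78 to 0.33 for Casz1, the positive ones without replicate 2. For the largest Tbx20 domain, 4 genes called higher became 1 with a 3-fold threshold and, by edgeR, 0 with no minimum of counts per cell, without low-Gnas areas or with the domain set by Gata4 (4, 4 and 2 had an unadjusted p below 0.05); DESeq2 called 4. Gata5, the nearest to the threshold, was called in 2 of 9 other settings with Tbx20 domains. Over all genes 7 were called higher and 14 lower; DESeq2 gave 11 higher, all Tbx20 domains together 4 and 6, a 3-fold threshold 9 lower and 100 nearest cells 8 lower, and the 3 settings that called 0 of the 4 genes called 0 in either direction. The median co-detection of the 10 pairs was 1.83 at E15.5 and 1.89 in E9.5 section 2; it was 1.70 and 1.71 without cells whose neighbour centre lay within 8 µm, 2.09 at E15.5 with cells thinned to 50 counts and 1.71 in E9.5 section 2 without low-Gnas areas. The share of Gata5 counts in visceral smooth muscle-like clusters was 38.96% at resolution 0.5, 33.8% at resolution 2 and 44.6% with at least 20 counts per cell. That of Gata4 in Spint2-led clusters was 21.04% and 20.7% in the last 2 settings, and that of Casz1 in Pdlim3-led clusters 38.2% at resolution 0.5. With a 10-fold threshold the E15.5 domain held 21.03% of Gata4, 2.38% of Gata5, 26.6% of Tbx20 and 3.78% of Hand2 counts and E9.5 had no domain. With a 3-fold threshold the domain of E9.5 section 2 held 40.2% of Gata4, 39.97% of Gata5, 62.1% of Tbx20, 26.99% of Hand2 and 45.4% of Casz1 counts. E9.5 section 1 then also had a Tbx20 domain, of 40 cells, and the edgeR fit at this threshold included that section too. The bin correlation of Gata5 and Hand2 was -0.0057 with bins of 50 µm. Of 335 alternatives in all, 197 kept direction and size or call, 3 reversed and 135 moved or crossed the threshold. Settings with no residual degree of freedom, such as those that left out 1 section, gave no test and were counted there as not called. The causes were not tested beyond what each setting changes. Depth limits E9.5 section 1, with 19 Gata4 counts.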

Other observations

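In E9.5 section 2 a compact group of 26 cells (around x 553 and y 2139 µm) held 146700 CPM Gata4, against 8355 CPM in the whole section, with 0 counts of Gata5, Tbx20 and Casz1 and 2 of Hand2. Its leading genes were Epas1, a hypoxia factor, at 74.2-fold, Pdpn at 53.5-fold, Sat1 at 23.1-fold, Cdh5 at 17.7-fold and Arhgap18 at 11.6-fold. The group corresponds to a cluster of 33 cells built without the 5 genes, of which 31 lay in section 2 and held 5.17% of that section's Gata4 counts. Low-Gnas areas held 6.45% of those 31 cells. The group was chosen after its values were seen, and the other section held 2 cells of this cluster, with 0 Gata4 counts.

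Single clusters at E9.5 also carried 1 of the genes alone. A cluster of 217 cells in section 2 and 60 in section 1 had 6346 and 5275 CPM Gata5, from only 63 and 16 counts. It had 0 counts of Gata4 and Tbx20 in either section, and all its cells lay in low-Gnas areas (100%). Its median depth was 41 counts per cell, and its leading genes were Higd1b, Lyve1, Gkn3 and C1qa. A cluster of 287 cells in section 2 had 4813 CPM Casz1, with 60.7 CPM Gata4, 121.3 CPM Tbx20 and 262.9 CPM Hand2. Its 45 cells in section 1 had 607.9 CPM Casz1 from 3 counts. These clusters too were chosen after their values were seen.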
